A study of Mus musculus with 5 samples.

Results

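ATRX occupancy was described in control neurons at 14 days in vitro (DIV14), in which 96230 peaks of ATRX chromatin over input DNA lay on chromosomes 1 to 19. They were chosen as every entry of that library's peak list on those chromosomes, of 96670 peaks in the whole list and 651098 in the 4 lists of the study. Primary neurons came from C57BL6/J mouse embryos of embryonic day 15.5 to 17.5 and were kept in medium with B27 and fetal bovine serum. Lentivirus was added at DIV5, and the controls carried mCherry, a red fluorescent protein; neither the promoter of the virus nor the number of embryos pooled is given in the sources used here. The study's other ChIP groups, 1 library each, received TBC1D3 or MICAL1-M1 (both DIV14) or were mCherry neurons taken at DIV7, and they serve here only as context. Without replicates there is no replicate error and no difference was tested; intervals are exact 95% binomial (Clopper-Pearson) intervals and cover counting error only.

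ATRX is an ATP-dependent chromatin remodeller of the SWI/SNF2 family, mutated in an X-linked intellectual disability syndrome with alpha thalassaemia. With its partner DAXX it deposits the histone variant H3.3, and it is known for binding heterochromatin, telomeres and other repeated, G-rich DNA. A ChIP peak is a stretch where fragments recovered with the ATRX antibody outnumber a local background, and its summit is the position with the most fragments. A peak measures neither transcription nor the number of cells bound: in a bulk culture, fewer bound cells and less ATRX per cell cannot be told apart.

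The promoters below show sequence at gene starts with and without a summit. Each window runs from 250 bases before to 50 after the start of transcription as RefSeq gives it for GRCm38.p6, on the strand of the gene, with CpG dinucleotides in capitals. The first 4 belong to the strongest peaks by fold whose summit lay inside such a window. The other 3 were chosen after their values were seen, as a CpG-poor promoter with a summit, a CpG-rich promoter without a summit and a promoter with neither.
Morc2a, chr11:3649187-3649486, plus strand: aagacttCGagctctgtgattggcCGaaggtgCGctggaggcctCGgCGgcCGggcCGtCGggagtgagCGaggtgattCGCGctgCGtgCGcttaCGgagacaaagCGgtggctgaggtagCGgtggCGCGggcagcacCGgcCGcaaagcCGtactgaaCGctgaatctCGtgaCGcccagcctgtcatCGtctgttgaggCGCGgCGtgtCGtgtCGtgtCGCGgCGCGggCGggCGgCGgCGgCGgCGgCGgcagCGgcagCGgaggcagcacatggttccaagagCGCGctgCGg
Ino80, chr2:119477638-119477937, minus strand: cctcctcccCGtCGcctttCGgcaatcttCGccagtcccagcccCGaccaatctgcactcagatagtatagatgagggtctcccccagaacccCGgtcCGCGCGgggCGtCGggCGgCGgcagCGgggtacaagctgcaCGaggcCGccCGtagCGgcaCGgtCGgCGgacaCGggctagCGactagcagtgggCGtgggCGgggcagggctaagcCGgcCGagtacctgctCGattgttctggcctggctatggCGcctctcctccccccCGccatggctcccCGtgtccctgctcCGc
Cyp20a1, chr1:60343050-60343349, plus strand: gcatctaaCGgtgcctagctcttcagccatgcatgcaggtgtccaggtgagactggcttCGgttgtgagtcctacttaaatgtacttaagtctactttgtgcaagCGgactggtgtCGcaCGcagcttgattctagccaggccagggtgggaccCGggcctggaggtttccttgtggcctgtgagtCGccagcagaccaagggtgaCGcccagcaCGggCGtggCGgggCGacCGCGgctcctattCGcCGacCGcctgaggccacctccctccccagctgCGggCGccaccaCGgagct
Uap1, chr1:170174915-170175214, minus strand: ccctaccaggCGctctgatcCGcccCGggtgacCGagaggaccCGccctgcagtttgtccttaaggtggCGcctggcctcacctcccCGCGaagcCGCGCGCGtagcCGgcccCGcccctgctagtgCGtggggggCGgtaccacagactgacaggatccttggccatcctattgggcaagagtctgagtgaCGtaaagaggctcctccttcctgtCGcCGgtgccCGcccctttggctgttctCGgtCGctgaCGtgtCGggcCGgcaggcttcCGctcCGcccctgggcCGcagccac
Mtmr11, chr3:96161720-96162019, plus strand: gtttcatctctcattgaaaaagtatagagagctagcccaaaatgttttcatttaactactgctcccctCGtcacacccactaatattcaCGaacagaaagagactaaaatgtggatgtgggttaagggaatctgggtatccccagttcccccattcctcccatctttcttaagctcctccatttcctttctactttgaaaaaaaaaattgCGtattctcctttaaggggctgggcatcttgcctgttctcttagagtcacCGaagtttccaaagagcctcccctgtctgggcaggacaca
Hoxa13, chr6:52260831-52261130, minus strand: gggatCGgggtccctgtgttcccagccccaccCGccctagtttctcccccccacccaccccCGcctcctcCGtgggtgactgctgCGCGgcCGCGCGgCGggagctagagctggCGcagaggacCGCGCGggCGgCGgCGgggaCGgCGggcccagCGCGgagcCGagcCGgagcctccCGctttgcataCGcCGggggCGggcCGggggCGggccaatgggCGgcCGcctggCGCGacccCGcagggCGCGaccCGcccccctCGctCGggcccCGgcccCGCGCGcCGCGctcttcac
Olfr1006, chr2:85678692-85678991, minus strand: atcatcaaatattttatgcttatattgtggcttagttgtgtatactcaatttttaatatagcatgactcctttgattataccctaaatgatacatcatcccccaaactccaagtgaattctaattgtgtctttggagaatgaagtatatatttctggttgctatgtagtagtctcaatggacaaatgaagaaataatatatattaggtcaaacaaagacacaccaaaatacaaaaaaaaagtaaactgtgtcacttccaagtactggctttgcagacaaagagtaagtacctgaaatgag
The Morc2a window held 46 CpGs, with the summit 58 bases upstream of the start. The Ino80 window held 32 and its summit lay 2 bases downstream. Cyp20a1 and Uap1 held 20 and 28 CpGs. Mtmr11, with 4 CpGs and a GC content of 44%, still carried a peak of 4.38-fold. Hoxa13 held 45 CpGs at a GC content of 81% and no summit lay within 1 kb. Olfr1006 held none at 31.7% GC and also had no summit.

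Most control peaks were small. The median peak was 432 bp wide (quartiles 339 and 625 bp, range 287 to 5630 bp), and 43.1% of peaks were under 400 bp. The median fold over the local background was 2.19 (quartiles 1.97 and 2.41). From the deposited fold and p-value of each peak, the number of overlapping fragments at its summit could be recovered for 99.997% of peaks: the median was 9 fragments over a genome background of 3.56. A difference of 1 fragment moved the fold by 0.219, so many peaks share the same fold. Only 6.65% of peaks (6398) reached 3-fold and 29 reached 5-fold. The list was cut at a p-value of about 0.05, its largest p being 0.0497, and 4029 peaks (4.19%, interval 4.06 to 4.32%) had a q-value, the p-value adjusted over the genome, of at most 0.05. In all, the peaks covered 52.9 Mb, or 2.20% of the span between the first and the last summit of each chromosome over the 4 lists.

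Summits stood at the ends of protein-coding genes more often than those ends' share of the span. Within 1 kb of either end lay 9514 summits (9.89%, interval 9.70 to 10.1%), on 3.10% of the span, which is 128 summits per Mb. Gene bodies outside those windows held 45685 summits (47.5%, interval 47.2 to 47.8%) at 48.5 per Mb on 39.2% of the span. The remaining intergenic space held 41031 summits (42.6%, interval 42.3 to 43.0%) at 29.6 per Mb on 57.7% of the span. Among peaks with a q of at most 0.05 the gene-end share was 40.8% (interval 39.3 to 42.3%), 13.2 times the share of the span. The local background, too, was raised more often at gene ends: it exceeded the genome background in 59.1% of gene-end peaks against 35.9% in gene bodies and 30.3% in intergenic space. Among the peaks without a raised background the gene-end share was 6.30% (interval 6.11 to 6.49%), and among those with one it was 16.3% (interval 15.9 to 16.7%). The part of the raised background in the gene-end share was not tested.

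The gene-end share climbed with peak size. It was 5.05% in peaks under 400 bp, 16.8% from 700 to 1000 bp, 35.9% from 1500 to 2000 bp and 45.9% (interval 37.6 to 54.3%) in the 146 peaks of 3000 bp or more. By fold it ran from 5.90% below 2-fold through 28.6% at 3 to 3.5-fold to 69.0% (20 of 29 peaks, interval 49.2 to 84.7%) at 5-fold or more. The body share stayed between 27.6% and 48.9% over the same fold classes, and the intergenic share fell from 47.1% to 3.45%. Median widths were 643 bp at gene ends, 431 bp in bodies and 408 bp in intergenic space.

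**Figure D1:**
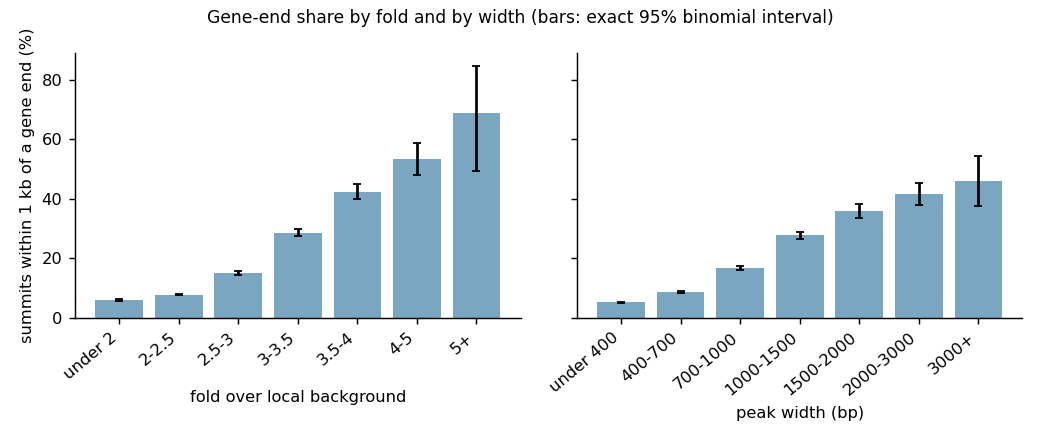
Share of summits within 1 kb of a protein-coding gene end (%, y axis) by class of fold over the local background (left) and of peak width in bp (right). Bars give the share and error bars its exact 95% binomial interval, from 5.90% to 69.0% across the fold classes and from 5.05% to 45.9% across the width classes.

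The gene-end summits lay at starts rather than 3′ ends. Of the 16456 protein-coding genes whose strand was known, 6868 had a summit within 1 kb of the start (41.7%) and 1011 within 1 kb of the 3′ end (6.14%). Since a window around each end of a short gene can hold the same summit, the same count was made over the 13375 genes of at least 4 kb, and gave 46.9% at the start against 5.72% at the 3′ end. Summit density averaged 252 per Mb in the last 500 bases before the start and 397 in the first 500 bases after it. It was 91.5 from 1000 to 500 bases upstream and 179 from 500 to 1000 bases downstream, so the profile was wider on the transcribed side. The start here is the outer edge of the annotated gene, so any other start of that gene lies downstream of it. The part of such starts in this width was not tested. At 10 kb upstream it was 27.6 per Mb. Around 3′ ends of all these genes the density stayed between 28.6 and 42.2 per Mb in every bin within 10 kb. The mean of the chromosomes was 40.04 per Mb. In the 7568 genes of at least 20 kb the density was lower in the last 10 kb of the gene, at 18.8 to 27.5 per Mb. From 1 to 5 kb beyond the 3′ end of those longer genes it was 38.8 to 48.6 per Mb. Peaks at starts had a q of at most 0.05 in 20.5% of cases (1284 of 6257) and peaks at 3′ ends in 7.16% (70 of 977). Counting only the peaks at the genome background, 16.8% of genes had a summit at the start and 3.66% at the 3′ end.

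**Figure D2:**
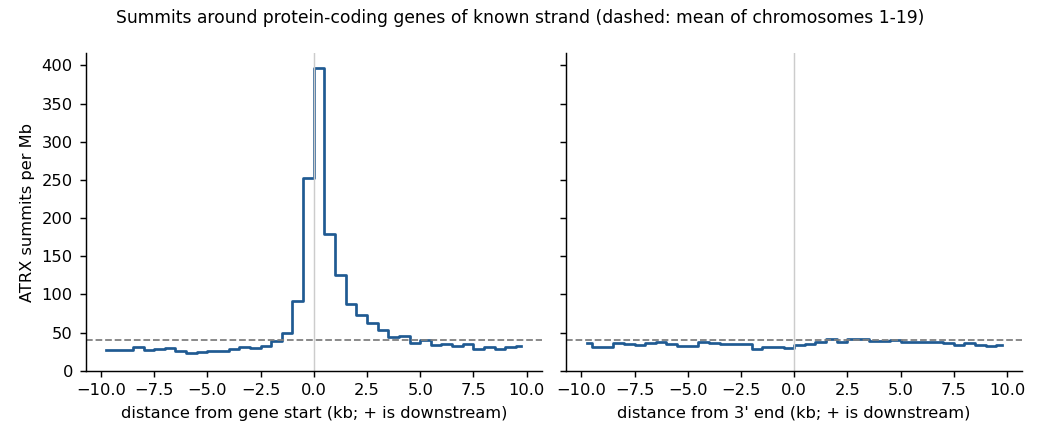
Summits per Mb (y axis) in 500-bp bins against the distance in kb from the start (left) and the 3′ end (right) of 16456 protein-coding genes of known strand; positive distances are downstream. The dashed line is the mean of chromosomes 1 to 19, 40.04 per Mb; the highest bin, 397 per Mb, is the first after the start, and no such rise is seen at the 3′ end.

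Occupied genes are those with a summit within 1 kb of either end. Of 20661 protein-coding genes on these chromosomes 9146 were occupied (percent called 44.3), from 8183 distinct peaks, since neighbouring genes can share a summit. With a q of at most 0.05 the count was 1848 (percent called 8.94). The strongest was at Egr1, an immediate early zinc finger factor of neuronal activity: 46 fragments over a local background of 4.46, a fold of 8.61 and a width of 3571 bp. The next were Triobp, an actin-binding protein gene, at 5.92-fold with 26 fragments, and Zcchc9, a zinc knuckle protein gene, at 5.83-fold with 27. Morc2a, a MORC-family ATPase of heterochromatin silencing, had 5.70-fold over 2264 bp, and Ino80, the ATPase of another remodelling complex, 5.58-fold over 1204 bp. At 5.26-fold, each with 23 fragments, stood Cyp20a1, a cytochrome P450 gene, Rab40b, a small GTPase, Uap1, an enzyme of UDP-N-acetylglucosamine synthesis, and the zinc finger gene Zfp869. The other genes of the highest 25 reached 4.82-fold to 5.25-fold. They included the BMP receptor Acvr1, the Wnt receptor Fzd1, the immediate early factor Jun, the clock gene Nr1d2, the Polycomb gene Phc2, the chromatin reader Ing1, the adenylyl cyclase Adcy8 and the apoptosis inhibitor Bcl2. Also among them were Ints14, Urgcp, Zfp433, Zfand3, Avpi1, Cand1 and Cdc42ep3. Strand was known for 22 of the 25, and all 22 had a summit within 1 kb of the start; Fzd1 and Jun also had a summit within 1 kb of the 3′ end.

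Promoters with a summit were rich in CpG. Of 20084 promoter windows, from 16456 genes, 8996 had a summit within 1 kb of the start and held a median of 22 CpGs at 62.3% GC, against 5 CpGs at 51.7% GC in the 11088 without. Occupancy was 4.15% (interval 3.51 to 4.86%) in windows with 0 to 2 CpGs, 32.7% with 6 to 10, 56.6% with 11 to 15 and 74.8% (interval 73.1 to 76.3%) with 31 to 67. For summits with a q of at most 0.05 it went from 0.426% to 17.96% over the same classes. Above about 15 CpGs the rise was slower, from 65.2% to 74.8%. CpG number and GC content vary together among promoters, and their separate parts were not tested.

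**Figure D3:**
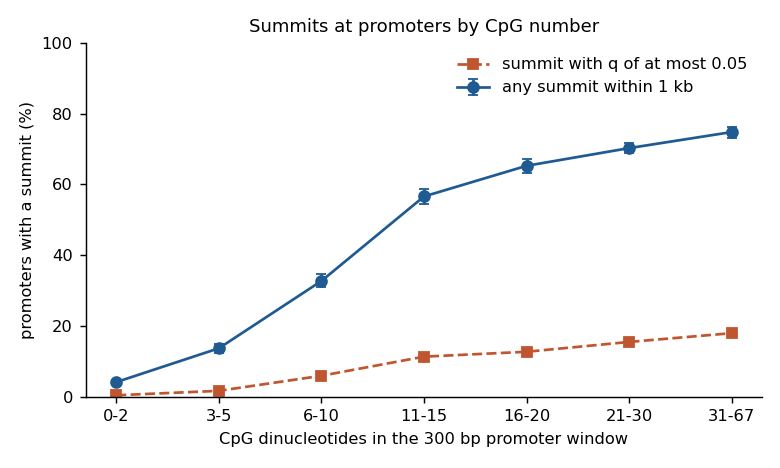
Promoters with a summit within 1 kb of the start (%, y axis) by the number of CpG dinucleotides in the 300 bp promoter window (x axis). Circles give all summits with exact 95% binomial intervals, from 4.15% to 74.8%, and squares those with a q of at most 0.05, from 0.426% to 17.96%.

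Short motifs differed in how their frequency compared between promoters with and without a summit. Motifs were searched as letters on both strands of the 300-base windows, and a match is a description, not a binding site. GGGCGG, the GC box, was found in 67.6% of windows with a summit and 30.3% of those without, and in 47.0% of all. TATAAA, the TATA box, was found in 6.47% against 17.8%, and in 12.7% of all. The CCAAT box differed little, at 37.7% against 38.4%, and 38.1% of all. The cyclic AMP response element TGACGTCA was found in 3.47% against 1.35%, and in 2.30% of all. At least 4 runs of GGG with 1 to 7 bases between them, a pattern that can fold into a G-quadruplex, a structure ATRX is known to bind in vitro, were found in 30.1% against 16.1%, and in 22.4% of all. These last runs can overlap a GC box. Among windows with at least 16 CpGs, 69.6% (interval 68.0 to 71.2%) with the G runs had a summit and 70.9% (interval 69.8 to 72.1%) without them, with intervals that overlap. In that class GGGCGG gave 71.4% with (interval 70.3 to 72.4%) and 67.0% without (interval 64.9 to 69.1%). TATAAA gave 73.1% with and 70.3% without. With 0 to 5 CpGs the G runs gave 15.02% with (interval 11.7 to 18.9%) and 7.91% without (interval 7.24 to 8.63%). There GGGCGG gave 12.4% with and 8.06% without, and TATAAA 5.55% with and 9.36% without. With 6 to 15 CpGs the G runs gave 46.9% with and 42.3% without, with intervals that overlap. GGGCGG gave 48.7% and 39.7% there, and TATAAA 38.8% and 43.7%.

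Gene families differed in how many members were occupied, to be read against the 44.3% of all protein-coding genes. Genes of everyday cell upkeep were above that share: 82 of 115 genes of oxidative phosphorylation (71.3%), 56 of 80 cytosolic ribosomal proteins (70.0%), 48 of 78 mitochondrial ribosomal proteins, 43 of 68 spliceosome and hnRNP genes, 52 of 80 chaperones, 31 of 50 proteasome genes and 25 of 34 ubiquitin-conjugating enzymes. Their strongest members were Mrps6 of the mitochondrial ribosome at 4.82-fold, the heat shock protein partner Dnajb6 at 4.60-fold, the complex I subunit Ndufv2 at 4.30-fold, and Rps13 and Rpl15 at 4.16-fold. In the oxidative phosphorylation list 68 of 94 members of known strand had a summit at the start (72.3%) and 5 at the 3′ end. Of 33 aminoacyl-tRNA synthetases 16 were occupied (48.5%, interval 30.8 to 66.5%), which is not distinguishable from the share of all genes. Replication-dependent histone genes are so short and so close together that 43 occupied of 63 rested on 31 peaks. Of the 58 of known strand, 35 had a summit within 1 kb of the start and 31 within 1 kb of the 3′ end.

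Neuronal lists were also above the share of all genes when all peaks were counted. Apart from the immediate early genes (median length 7.57 kb), these lists hold long genes. Their median lengths ran from 48.0 kb for the channel list to 319 kb for the glutamate receptor list, against 17.5 kb over all genes. Gene-end occupancy was 53.1% in all genes of 20 to 100 kb and 60.9% in those of 100 to 500 kb. The part of gene length in the shares of these lists was not tested. Immediate early genes, induced within minutes of stimulation, were occupied in 31 of 40 cases (77.5%, interval 61.5 to 89.2%), 13 of them with a q of at most 0.05, against 8.94% of all genes; after Egr1 and Jun came Btg1 at 4.30-fold and the phosphatase Dusp5 at 4.28-fold. Of the neurexin, neuroligin and Lrrtm adhesion genes that join synaptic membranes 29 of 35 were occupied (82.9%, interval 66.4 to 93.4%), with Cntnap4 at 3.72-fold and Igsf9b at 3.51-fold. Of 56 presynaptic release genes 40 were occupied, led by the active zone gene Ppfia2 at 4.34-fold, and of 42 postsynaptic scaffold genes 30, led by Sipa1l1 at 3.94-fold. Ionotropic glutamate receptor genes were occupied in 12 of 17 cases (70.6%, interval 44.04 to 89.7%), an interval that includes 44.3%. Among them were the NMDA receptor subunit Grin2b at 3.72-fold and the AMPA receptor subunit Gria2 at 3.596-fold. Those without a gene-end summit were Grik3, Grik5, Grin2c, Grin2d and Grin3b. GABA and glycine receptor genes were occupied in 13 of 21 cases (61.9%, interval 38.4 to 81.9%), an interval that includes 44.3%. Voltage-gated channel genes were occupied in 71 of 131 cases, led by the sodium channel Scn2a at 4.60-fold; with a q of at most 0.05 the channel share was 8.40%, below the 8.94% of all genes, and with a window of 0.5 kb it was 34.4% against 33.4%. Axon guidance genes were occupied in 39 of 64 cases. With a q of at most 0.05 the shares were 22.9% for the adhesion list, 19.6% for the presynaptic, 9.52% for the postsynaptic, 17.6% for the glutamate receptor, 14.3% for the GABA and glycine receptor and 10.9% for the axon guidance list. The intervals of the adhesion (10.4 to 40.1%) and presynaptic (10.2 to 32.4%) shares lie above 8.94%. Those of the postsynaptic, glutamate receptor, GABA and glycine receptor and axon guidance shares include it.

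Other families were below the share of all genes. Olfactory receptors, whose transcripts belong to the nasal epithelium, were occupied in 10 of 1104 cases (0.906%) and vomeronasal receptors in 4 of 352. Keratins and their associated proteins, of skin and hair, were occupied in 10 of 109. Of 39 Hox genes, which set position along the body axis, 3 were occupied, Hoxd12 at 1.83-fold and Hoxa10 and Hoxa11, from 1 shared peak, at 1.64-fold. Fox, Sox, Pax and related developmental factors were occupied in 45 of 144 cases (31.3%, interval 23.8 to 39.5%), the strongest being Sox4 at 3.94-fold. Imprinted genes, expressed from the copy of one parent, were occupied in 15 of 48 (31.3%, interval 18.7 to 46.3%, which includes 44.3%), with Rasgrf1 at 3.48-fold; with a window of 3 kb the share was 54.2% against 55.5% of all genes. In all, 10 symbol stems of at least 20 genes had no occupied member at all, among them the defensins (Defa and Defb), the secretoglobins (Scgb), the kallikreins (Klk) and the major urinary proteins (Mup).

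**Figure D4:**
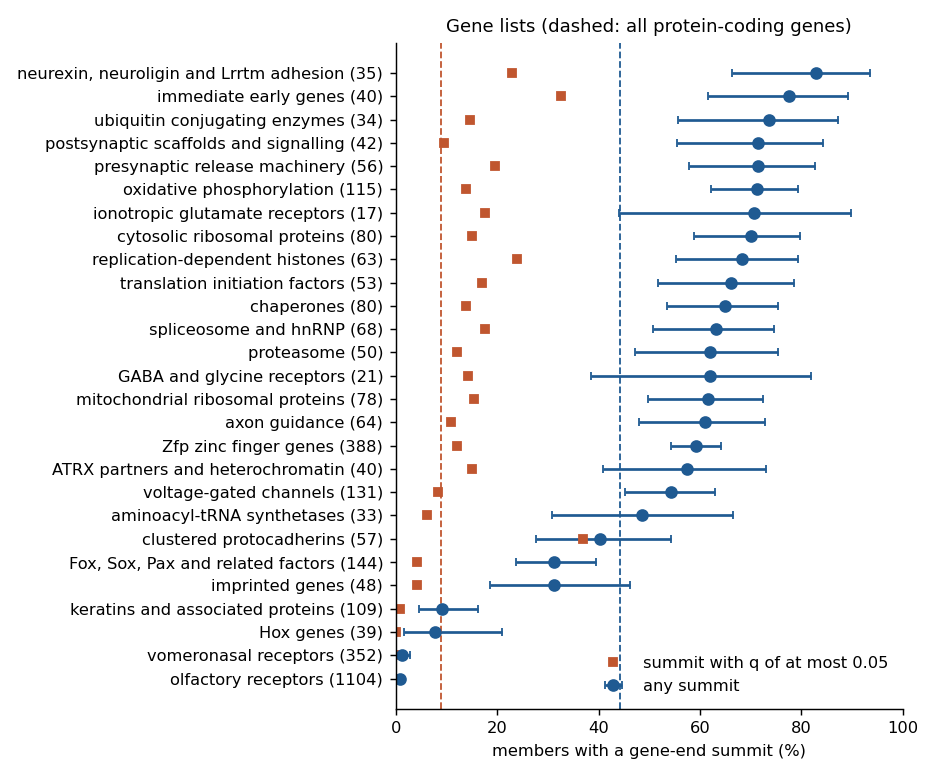
Members with a gene-end summit (%, x axis) in 27 gene lists, with the number of members in brackets; circles with exact 95% binomial intervals give all summits, squares those with a q of at most 0.05, and dashed lines the same shares over all 20661 protein-coding genes. Adhesion and immediate early genes are highest (82.9% and 77.5%) and olfactory receptors lowest (0.906%); the protocadherin members share 3 peaks.

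CpG content did not order all of these families. Of the 9238 promoter windows with at least 16 CpGs 70.4% had a summit (interval 69.5 to 71.4%). In this class the oxidative phosphorylation list had 59 of 72 (81.9%, interval 71.1 to 90.0%). The Zfp zinc finger genes had 137 of 179 (76.5%, interval 69.6 to 82.5%, which includes 70.4%). Intervals of the ribosomal protein, spliceosome, chaperone, proteasome and ubiquitin-conjugating lists also include 70.4%, with 71.4% for mitochondrial ribosomal proteins and 68.6% for spliceosome and hnRNP genes. The 11 CpG-rich Hox windows, of which the Hoxa13 sequence printed above is an example, had none (interval up to 28.5%). Fox, Sox, Pax and related factors had 26 of 77 (33.8%, interval 23.4 to 45.4%). Wnt ligand genes, not one of the lists, had 5 of 14 and were named because this was the lowest share among 95 symbol stems compared. Genes encoding partners of ATRX and other heterochromatin proteins had 21 of 39 (53.8%, interval 37.2 to 69.9%). That last list also holds Ino80, the ATPase of another remodelling complex. In it 23 of 40 genes were occupied, led by Ino80 at 5.58-fold. Next came Trim28, a corepressor of retrotransposons, at 4.77-fold, Morc3 at 4.38-fold and the heterochromatin protein Cbx3 at 3.94-fold.

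The clustered protocadherins, cell-surface proteins that give neurons their identity, need a separate reading. Of 57 genes 23 were occupied, 21 with a q of at most 0.05, but these rested on only 3 peaks. The gamma protocadherins share their last exons, so their annotated spans end at nearly the same place, and a single peak of 3.73-fold and 2244 bp there counted for 21 of them. Of the 22 Pcdhb genes, which have no shared exon, none was occupied.

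The label of the cells was checked only as far as peaks allow. Gene-end summits were found at 7 of 11 neuron markers, with Snap25 at 3.51-fold, Syt1 at 3.51-fold, Map2 at 2.97-fold and Slc17a7 at 2.92-fold; Rbfox3, Gap43, Slc17a6 and Gad2 had none. Of 6 astrocyte markers Gja1 alone had a summit, at 2.28-fold, and Gfap, Aqp4, Aldh1l1, Slc1a3 and S100b had none. Of 5 oligodendrocyte markers 3 had one (Olig1, Mbp and Olig2, from 1.79-fold to 3.11-fold), and none of 6 microglia markers did. The exact intervals of the neuron (30.8 to 89.1%), astrocyte (0.421 to 64.1%) and oligodendrocyte (14.7 to 94.7%) shares, and that of the microglia share (up to 45.9%), include the 44.3% of all protein-coding genes. No expression was measured, so the makeup of the culture was not tested.

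Among other classes of annotated genes, tRNA genes stood out by their share. Of 391 tRNA genes, short units read by RNA polymerase III, 211 had a summit within 1 kb (54.0%, interval 48.9 to 59.0%), from 146 distinct peaks, and 57 had one with a q of at most 0.05. For 168 of the 211 the peak did not lie at the end of a protein-coding gene. Counting only the peaks at the genome background, 15.6% of tRNA genes had a summit. Among the 303 tRNA genes at least 2 kb from protein-coding genes, 150 were occupied (49.5%, interval 43.7 to 55.3%). At the same distance the share was 24.1% of rRNA genes (13 of 54, interval 13.5 to 37.6%), 20.7% of lncRNA genes and 15.2% of miRNA genes. It was 6.25% of snRNA genes, 3.90% of snoRNA genes and 4.35% of pseudogenes. The strongest was n-TEttc7, a glutamate tRNA gene on chromosome 7, in an intergenic peak of 4.82-fold at chr7:58397826-58400020, with the nearest protein-coding gene, Atp10a, 257 kb away. A peak of 2877 bp and 4.21-fold at chr11:69039443-69042319 covered 4 tRNA genes at once (n-TDgtc9, n-TGtcc6, n-TPcgg3 and n-TWcca7). tRNA genes sit in arrays, and occupied shares were 56.7% with another tRNA gene within 5 kb and 48.0% without, with intervals that overlap (50.6 to 62.7% and 38.9 to 57.2%).

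Arrays of tRNA genes differed from each other. On chromosome 13, which carries the main array, 63 of 105 were occupied, on chromosome 11 37 of 52 and on chromosome 1 24 of 37. On chromosome 6 only 2 of 53 were. By amino acid, cysteine tRNA genes had 5 of 56 (8.93%), while tyrosine had 9 of 10, proline 13 of 15 and phenylalanine 6 of 7. The counts by chromosome and by amino acid are of the same tRNA genes, so a low share in each is not a separate result. Whether reads can be placed uniquely in arrays of similar tRNA genes was not examined. Of 931 snRNA genes 80 were occupied (8.59%), below the share of protein-coding genes. Those named here for their known roles include Rn7sk, the RNA that holds P-TEFb inactive, at 3.65-fold, and Rnu12, of the minor spliceosome, at 3.72-fold; the Rnu12 summit also lay within 1 kb of a protein-coding gene end.

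**Figure D5:**
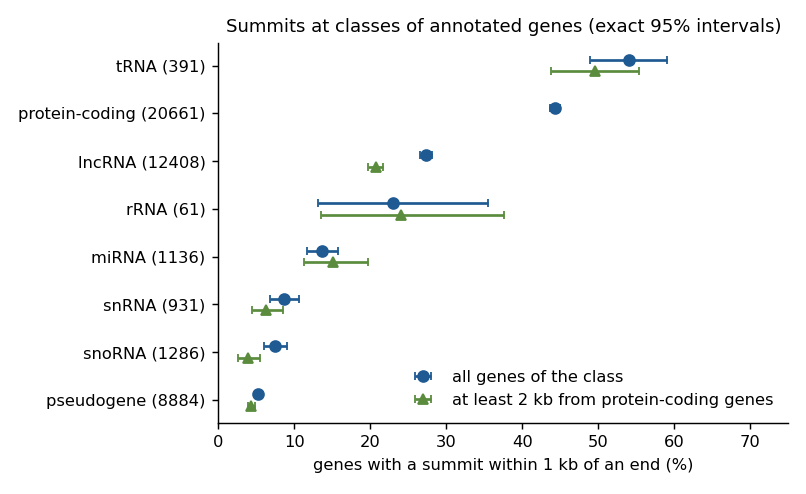
Genes with a summit within 1 kb of an end (%, x axis) by class of annotated gene, with the number of genes in brackets. Circles give all genes of a class and triangles those at least 2 kb from a protein-coding gene, with exact 95% binomial intervals; tRNA genes are highest on both counts, at 54.0% and 49.5%.

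Summits came in runs. The median distance to the nearest other summit was 4.66 kb, and 51.9% of summits (interval 51.5 to 52.2%) had another within 5 kb. The same number of summits, placed at random with an even density over the chromosomes, would give 33.0%. Linking summits 5 kb or less apart gave 18435 groups of 2 or more, 1421 of 5 or more and a longest run of 25. Gene-body summits were in such groups most often, at 58.2%, against 49.99% at gene ends and 45.2% in intergenic space. The longest run, 25 peaks at chr13:83712292-83756128, held no protein-coding gene; it spanned the microRNA gene Mir9-2 and its host transcript C130071C03Rik, 45.2 kb from Mef2c. A run of 16 at chr7:79495081-79524254 held Mir9-3. Runs of 24 and 19 lay at Tcf4 and Nr2f1, both transcription factors of developing neurons, of 18 at Dclk1, at Celf2 and at Tnik, of 17 at Zeb2 and of 15 at Nfib. The peaks in these runs were weak: the median fold was 2.31 in the Mir9-2 run, where 2 of the 25 had a q of at most 0.05, and 2.30 at Tcf4, where none did.

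The 3 genes of miR-9, a microRNA of neural progenitors and neurons, each lay inside a run of summits linked at 5 kb or less, of 25 peaks at Mir9-2, 16 at Mir9-3 and 7 at Mir9-1, which is why its sequence is given. Mir137, of another neuronal microRNA, lay inside a run of 12. Seeds, bases 2 to 8 of the mature RNA, are in capitals, and the sequences are those of RefSeq for GRCm38.p6. Mir9-1, Mir9-2 and Mir9-3 give the same mature RNAs.
miR-9-5p: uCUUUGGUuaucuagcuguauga
miR-9-3p: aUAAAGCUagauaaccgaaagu
miR-137-3p: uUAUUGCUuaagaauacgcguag
The seeds of miR-9 and miR-137 differ. Within 20 kb of the hairpin lay 20 summits at Mir9-2 (hairpin chr13:83738814-83738885), 17 at Mir9-1 (chr3:88215598-88215686), 16 at Mir9-3 (chr7:79505264-79505353) and 13 at Mir137 (chr3:118433857-118433929). Over 919 hairpins the median was 1 and the 95th percentile 6. In the TBC1D3, MICAL1-M1 and younger mCherry lists, in this order, the Mir9-2 region held 3, 15 and 8 summits, the Mir9-1 region 7, 13 and 5, the Mir9-3 region 6, 15 and 13, and the Mir137 region 2, 8 and 3. The median over hairpins in those lists was 3, 2 and 3, so Mir137 was below it in the TBC1D3 list and at it in the DIV7 list. These regions were singled out after the counts of the control were seen.

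The genes with the most summits in their spans were long. Csmd1 held 215, the postsynaptic scaffold gene Dlg2 190, the RNA-binding protein gene Celf2 186, the adhesion gene Lsamp 181, the receptor phosphatase gene Ptprd 153, the reelin adaptor gene Dab1 136, Macrod2 134, Ntm 130 and Magi2 129. Counts per gene also reflect length, from 857 kb for Celf2 to 2271 kb for Ptprd. Per length, Celf2 had 21.7 summits per 100 kb, Ntm 13.4, Csmd1 13.1 and Lsamp 8.24, while Ptprd had 6.74 and Macrod2 6.71. All genes of 500 kb or more held 62.7 summits per Mb, so Ptprd and Macrod2 were near the density of their length class. Of the 10 genes with the most summits only Magi2 had no gene-end summit. A summit anywhere in the span was found in 52.2% of all protein-coding genes. Occupancy of gene ends went up with gene length, from 24.7% of genes under 5 kb to 68.4% (147 of 215) of those of 500 kb or more. In the 3678 genes of at least 50 kb, 30845 summits lay inside the gene and more than 1 kb from both ends. Of these the first 10% of the gene held 13.6%, the next parts about 10% each and the last 6.91%. The first 1 kb of each gene, where summits were densest, is left out of these shares.

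Along the chromosomes the counts were uneven. In 2375 bins of 1 Mb the mean was 40.3 summits with an SD of 24.3 over bins, the median 38 and the highest 187, and the variance was 14.7 times the mean. The highest bin lay on chromosome 2 at Celf2. The next, with 146 summits on chromosome 3 from 21 to 22 Mb, held no protein-coding gene and the nearest was Tbl1xr1, 76.3 kb outside the bin. Others were at Enc1 on chromosome 13 (142), Arpp21, host of Mir128-2, on chromosome 9 (139), the adhesion receptor gene Adgrb3 on chromosome 1 (136), Dclk1 and Nbea on chromosome 3 (134), Ntm (133), Csmd1 (130), and Pcdh9 and Tcf4 (126 each). Gene number did not order the bins: Spearman's rho between summits and protein-coding genes per bin was 0.028, and 0.39 for summits with a q of at most 0.05, over bins that are not independent. Bins with no gene averaged 29.7 summits, those with 3 to 5 genes 47.6 and those with 21 to 50 genes 31.1. Of the 32 empty bins several held vomeronasal, olfactory, Pramel, Skint or Klra gene clusters. Whether reads can be placed uniquely in such tandem clusters was not examined, which bears on the empty bins and on the low olfactory and vomeronasal shares. By chromosome, density ran from 29.6 per Mb on chromosome 7 to 46.3 on chromosome 10.

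Intergenic summits were spread far from genes, with a median distance of 87.3 kb to the nearest protein-coding gene. Their density lay between 25.8 and 33.9 per Mb at every distance class up to 500 kb and was 21.6 beyond it. The share with a q of at most 0.05 went from 3.597% at 1 to 5 kb to 1.28% beyond 500 kb. The strongest intergenic peaks were near Gm19802 (5.26-fold, 4.51 kb away), then, at 4.82-fold, near Lpp, Ctnnd2, Tbc1d4, Atp10a and Dnttip2. The Atp10a peak is the one over n-TEttc7, and the Dnttip2 peak covers Mir760.

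The widest peaks were at Dusp6, a phosphatase induced by ERK signalling (5630 bp, 2.95-fold), in an intergenic stretch 590 kb from F2rl3 (5229 bp), and in the bodies of Itm2c (5124 bp) and Cacng4 (4909 bp, 5.26-fold with 23 fragments). Those at Mex3b, Rnf217, Arl4c, Mycn, Epha4 and Add3 were between 4611 and 4857 bp wide. The Itm2c peak, at 2.44-fold, had a q above 0.05, while the other 9 had a q of at most 0.05.

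In 15 peaks the local background was at least 10 times that of the genome. The most extreme, at chr2:98666399-98667441, had 34918 fragments over a background of 28844, a fold of only 1.21, and it is also in each of the other 3 lists. On chromosome 9, 4 lay between positions 3017959 and 3025847, with 751 to 1305 fragments and folds from 1.08 to 1.38. Another 7 lay around the Rn4.5s repeats of chromosome 6 and 1 at the ribosomal RNA copy Rn18s-rs5 on chromosome 17. Folds of the 15 ran from 1.08 to 2.37, so a high fragment count there did not go with a high fold.

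The list assigned to MICAL1-M1 follows the label of its sample; the peak names inside it read M2. Set beside the other lists, the control peaks at gene ends and those with a low q recurred most. Peaks of the TBC1D3, MICAL1-M1 and DIV7 mCherry lists, in this order, overlapped 12.7%, 22.5% and 12.2% of all control peaks by at least 1 bp, and 25.2%, 51.7% and 23.8% of those at gene ends. Of control peaks with a q of at most 0.05 they overlapped 32.2%, 63.6% and 30.2%. Of the 96230 control peaks 61178 (63.6%) overlapped no peak of any other list, and 1.68% overlapped all 3. The lists are of different lengths (195085, 140005 and 207423 peaks on the same chromosomes), and an overlap also depends on the number and width of the peaks in each list. Control peaks at gene ends and those with a low q were wider, with medians of 643 and 954 bp against 432 bp over all control peaks. The part of this width in their overlaps was not tested. The control list, the shortest, had 6.79 genes with a start summit for each gene with a 3′ end summit, while that ratio was 1.84 in the TBC1D3 list, 4.39 in the MICAL1-M1 list and 1.902 in the DIV7 list. tRNA genes were occupied in 54.0% of cases in the control and in 26.1%, 43.99% and 21.7% in the other lists. Over the same lists the share of genes with a start summit was 41.7% in the control and 25.3%, 36.2% and 25.03% in the others. Of the 25 strongest control genes, chosen for their control fold, 13 had a gene-end summit in the TBC1D3 list, 21 in the MICAL1-M1 list and 12 in the mCherry DIV7 list, where all protein-coding genes gave percent called values of 34.7, 40.4 and 34.3; at Egr1 the folds were 3.29, 4.87 and 3.503. Each list is 1 library, and these differences between lists were not tested.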

How the data were processed

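ATRX ChIP and input DNA of mouse primary neurons were sequenced as paired ends, per the labels' protocols. The submitters' processing notes name MACS 1.4.2, Bowtie 1.3.0, ChIPseeker 1.26.2 and SAMtools 1.9 with no role or setting. MACS 1.4.2 is not known to write narrowPeak lists with q-values, so the caller behind the fold, p and q values is uncertain; library depth and the build were not given in the sources used here. The build was taken as GRCm38 from the scaffold names and because gene-end windows were denser in summits than the whole chromosome on 19 of 19 chromosomes. The authors deposited 1 narrowPeak list per ChIP library, which gives for each peak a score (the −log10 p multiplied by 10 and truncated), the fold enrichment, a ratio over local background, the −log10 p-value and −log10 q-value, and the summit's offset; the input, with no peak list here, was not analysed. Peaks were called per library.

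Peaks on chromosomes 1 to 19 of the mCherry DIV14 list were kept and summits were placed against the GRCm38.p6 RefSeq gene table, with a window of 1 kb; strand came from the RefSeq promoter table, which covers 16456 of 20661 protein-coding genes and none on chromosome 18. Pileups were solved from fold = (pileup + 1)/(background + 1) and the Poisson p-value, with a tolerance of 0.001 in −log10 p. The scripts used Python 3.11.15, numpy 2.4.6, pandas 2.3.3, SciPy 1.17.1 and Matplotlib 3.10.9 and were tested on simulated data. Genes were named by rule: the 25 strongest by gene-end fold, up to 4 per list, unoccupied members of a list where 5 or fewer, the 10 genes with most summits, the 10 widest peaks, the 10 densest bins and the 10 strongest intergenic peaks. A few genes that the rule names are not reported here. Runs, noncoding genes and symbol stems were named after their values were seen. The peaks, lists and rules were chosen with earlier results of these data known. Alternatives were q of at most 0.05, windows of 3 kb and 0.5 kb, all annotated genes, any base of the peak, gaps of 10 and 2 kb, and, for overlaps, at least 50% of the control peak; the restriction to peaks at the genome background, and all alternatives for starts, 3′ ends and tRNA genes, were added after seeing the data.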

Additional observations from a re-analysis of the deposited data

Results flagged for a closer look

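The control list also held peaks outside the chromosomes described, each count above the 3 that a count of 0 allows. There were 404 peaks on chromosome X, which is 2.41 per Mb against 40.04 per Mb on chromosomes 1 to 19; 10 of them had a q of at most 0.05 and their median fold was 2.19. Chromosome Y held 13 peaks, 2 of them with such a q. Unplaced and unlocalised scaffolds held 17, also 2 with such a q. The mitochondrial genome held 6, all with a q of at most 0.05 and folds from 1.52 to 2.69.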

How the results depend on the processing

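The size of each share depends on the peaks admitted and the window; gene-end summits were the fewest of the 3 classes except with a q of at most 0.05, where they were the most. With a q of at most 0.05 the gene-end, gene-body and intergenic shares were 40.8%, 36.3% and 22.9%, the median width 954 bp and occupied genes 1848. The share of close summits, counted among those 4029 peaks alone, was 7.35%. The even-density share of 33.0% was for all 96230 peaks and cannot be set beside this value. At the same q, starts, 3′ ends and tRNA genes were at 8.59%, 0.444% and 14.6%. Overlaps of these peaks with the TBC1D3, MICAL1-M1 and mCherry DIV7 lists were at 32.2%, 63.6% and 30.2%. With a 3 kb window the 3 class shares were 16.03%, 43.2% and 40.8%, and starts, 3′ ends and tRNA genes 50.7%, 17.0% and 67.5%. With 0.5 kb they were 6.87%, 49.6% and 43.5%, and 31.9%, 3.17% and 39.4%. With all annotated genes the classes were 13.7%, 52.9% and 33.4%. Any base of the peak gave a gene-end share of 11.2%. Peaks at the genome background alone gave gene-end and intergenic shares of 6.30% and 46.3%, a median width of 415.5 bp, and 16.8%, 3.66% and 15.6% for starts, 3′ ends and tRNA genes. Close summits were 69.8% within 10 kb and 27.1% within 2 kb. Requiring overlap of 50% of the control peak lowered the 3 overlaps to 4.46%, 12.1% and 4.39%. Of 27 gene lists, 20 were above the share of all genes in the description given, and 19 to 21 in its alternatives. No paired analysis was possible because each group has 1 library; for the same reason no library could be left out. With a median of 9 fragments at a summit, single weak peaks cannot be told from counting noise, and 57.0% of peaks have a q of 1.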
